A study of Mus musculus with 8 samples.

Results

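The receptors for lysophosphatidic acid (LPA) and the enzyme that makes this lipid outside cells were examined in the uterus of mice that had inhaled aerosol from an electronic cigarette. The members were Lpar1, Lpar2, Lpar3, Lpar4, Lpar6 and Enpp2, taken by gene symbol from the annotation of the array, with the brightest probe set kept for each gene. Of the 6 listed genes, 5 were measured under their symbol, each by 1 probe set, out of 19505 genes in all. Enpp2, which encodes autotaxin, was not analysed here.

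Whole uterus came from 8 wildtype C57BL/6J females on day 4.5 of pseudopregnancy, the state that follows mating to a vasectomised male, in which the uterus is under the hormones of early pregnancy and holds no embryo. The exposed group comprised 4 mice that breathed aerosol of propylene glycol and vegetable glycerin (55 to 45 parts) with 24 mg/mL nicotine and no flavouring, in daily sessions of 3 hours with 2 puffs each minute. Sessions ran on 5 days of each of the 4 weeks that preceded mating, and every day from the mating plug to tissue collection. The sham group comprised 4 mice in room air. All 8 mice were mated, and no age is stated for them in the labels. Each array held the RNA of 1 mouse, so a p-value sets the difference between groups against the spread between animals, and the number of arrays limits its precision. The design sets the day 4.5 uterus of aerosol-exposed mice against that of mice kept in air.

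LPA is a small signalling phospholipid that acts on cells through G protein-coupled receptors. Autotaxin releases it from lysophosphatidylcholine, and lipid phosphate phosphatases at the cell surface break it down. LPAR1, LPAR2 and LPAR3 belong to the EDG family of receptors, together with the receptors for sphingosine 1-phosphate, whereas LPAR4 and LPAR6 are closer to the P2Y purine receptors. In the mouse uterus, LPAR3 is a receptor of the luminal epithelium that progesterone raises before implantation, and mice that lack it implant late, with crowded embryos and low cyclooxygenase 2.

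The sequence before the start site is printed for Lpar3, the receptor with the widest spread between mice, and for Lpar6, the receptor with the smallest p-value, and the pair differs in CpG content. Both windows hold the 250 bases upstream of the start site on build GRCm38.p6, plus strand, and are credited to RefSeq. They were matched by gene symbol, as no source used here names the build behind the array. Capitals mark CpG dinucleotides. The Lpar3 window is chr3:146220711-146220960 and the Lpar6 window is chr14:73237641-73237890.
Lpar3: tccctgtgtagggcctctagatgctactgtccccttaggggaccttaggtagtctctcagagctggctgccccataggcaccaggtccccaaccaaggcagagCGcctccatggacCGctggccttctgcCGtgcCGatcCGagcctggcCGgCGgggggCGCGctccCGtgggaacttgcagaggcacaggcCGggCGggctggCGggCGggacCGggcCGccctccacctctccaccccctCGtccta
Lpar6: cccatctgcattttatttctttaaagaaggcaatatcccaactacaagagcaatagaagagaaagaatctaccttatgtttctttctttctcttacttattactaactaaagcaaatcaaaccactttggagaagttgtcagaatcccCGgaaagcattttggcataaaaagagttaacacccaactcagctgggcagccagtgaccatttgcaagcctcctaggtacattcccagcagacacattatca

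The Lpar3 window held 17 CpG dinucleotides and 69.6% G or C, with fewer CpG in 76.5% of 32851 windows of the same length. The Lpar6 window held 1 CpG and 39.2% G or C, and 7.87% of windows had fewer CpG. The median window had 6 CpG. The window of Lpar2 held 11 CpG, that of Lpar4 held 3, and the 3 start sites of Lpar1 had 11, 28 and 3. A GC box (GGGCGG, either strand) was found in 5 of the 7 member windows, against 32.7% of all windows, and occurred at 3 places in the Lpar3 window. The palindrome core bound by the progesterone and glucocorticoid receptors (ACANNNTGT) was in 0 of 7, against 5.84% of all windows, and the full palindromic oestrogen response element in 0 of 7, against 0.0639%. These matches describe letters in short windows.

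The 5 receptors differed between the groups by less than the test could call. Relative to sham, exposed means were lower for Lpar1, Lpar2 and Lpar3 (3 of 5, against 50.2% of all genes) and higher for Lpar4 and Lpar6. The groups were fully separated for 0 of 5 receptors, against 2.73% of the 22206 probe sets of the array in either direction and 1.35% with all exposed mice lower. In limma's test, with p-values adjusted by Benjamini-Hochberg across the whole array, 0 of 5 passed an adjusted p of 0.05, as did 0 of all probe sets (0%). At an unadjusted p under 0.05 there were also 0 of 5, against 5.42% of probe sets (2.91% higher and 2.5% lower in exposed mice). The smallest adjusted p among the receptors was 0.838. An adjusted p of this size does not show that the groups were alike, and the intervals given below state which differences remain possible. The log2 values of different probe sets are not compared with each other, since brightness depends on the probe as well as on the RNA.

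Lpar3, the receptor of the luminal epithelium, had the largest mean difference of the family and the widest spread. Its log2 values were 7.43, 7.53, 7.35 and 6.65 in sham mice 1 to 4 and 6.99, 6.49, 7.85 and 5.16 in exposed mice 1 to 4. Exposed mouse 3 lay above every sham mouse, exposed mice 2 and 4 lay below every sham mouse, and exposed mouse 1 lay within the sham range. Sham mice averaged 7.24 ± 0.40 (SD, n = 4) and exposed mice 6.62 ± 1.12. The difference, exposed minus sham, was -0.62 ± 0.47 (SE), with a 95% interval from -1.66 to 0.42 (limma adjusted p = 0.847). It was -0.13 without exposed mouse 4, -1.03 without exposed mouse 3 and 0.18 without exposed mice 2 and 4 together, a setting chosen after results of these data were known.

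The spread of Lpar3 was wide against the rest of the array. Its SD over the exposed mice exceeded that of 99.6% of probe sets, and its SD over the sham mice exceeded that of 97.0%. The exposed SD was 2.82 times the sham SD, a ratio that was not tested. For the other 4 receptors the exposed SD lay between 0.15 and 0.19 and exceeded that of 40.6% to 57.0% of probe sets.

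**Figure D1:**
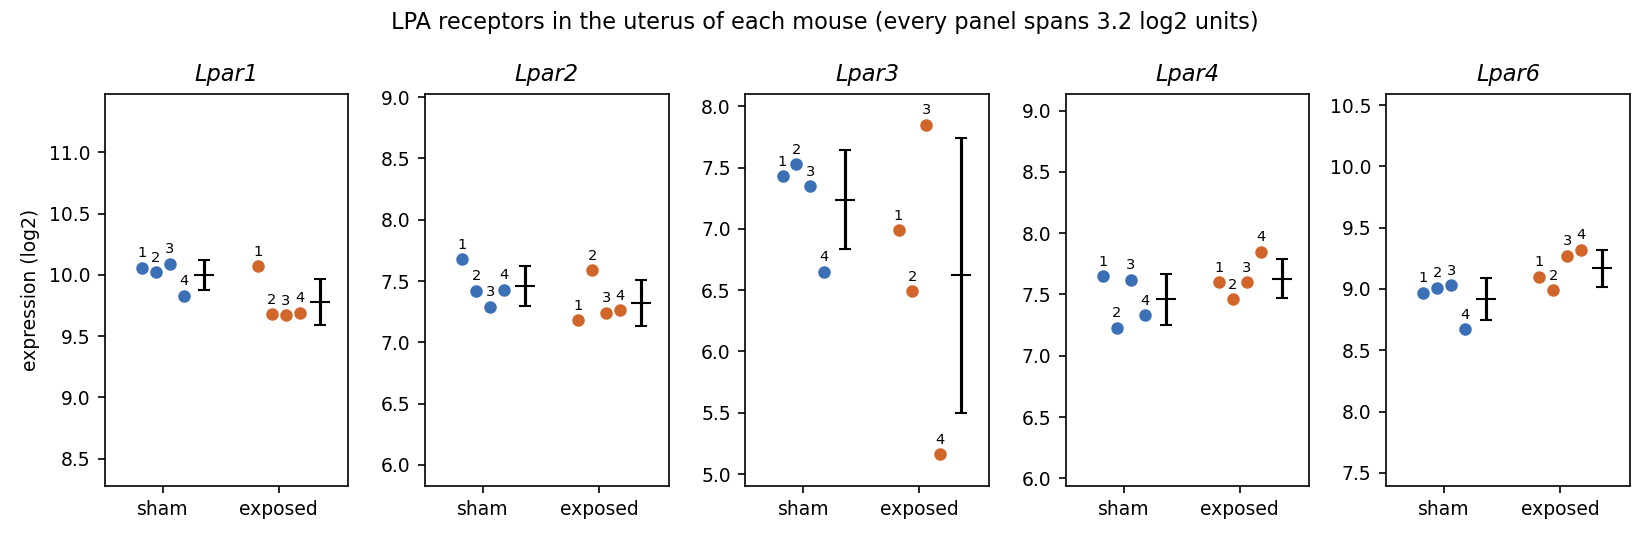
Log2 expression of the 5 measured LPA receptors in each mouse, with sham mice in blue, exposed mice in orange, the replicate number above each point, and the group mean and SD (n = 4) as a black bar beside each group. The exposed Lpar3 values run from 5.16 to 7.85, while no other receptor spans more than 0.65 over all 8 mice.

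Lpar1 is the receptor through which LPA acts in many mesenchymal and neural cells. Its values were 10.06, 10.02, 10.09 and 9.83 in sham mice and 10.07, 9.68, 9.67 and 9.69 in exposed mice. Exposed mice 2, 3 and 4 lay together below every sham mouse, and exposed mouse 1 lay among the highest sham mice. Exposed mice averaged 9.78 ± 0.19 (SD, n = 4), a difference from sham of -0.22 ± 0.11 (SE) with a 95% interval from -0.48 to 0.03 (unadjusted p = 0.0815, limma adjusted p = 0.838). Exposed mouse 1 was the only overlapping mouse, so leaving it out separates the groups by construction. The difference was then -0.32 (limma adjusted p = 0.324). In that fit 2545 probe sets of the array had a limma unadjusted p under 0.05, against 1203 with all mice, so lower p-values were not particular to Lpar1. With each other mouse left out in turn the Lpar1 difference lay between -0.28 and -0.19.

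Lpar2, a receptor of the same family found on epithelial and immune cells, differed least in its mean. Its values were 7.68, 7.42, 7.29 and 7.43 in sham and 7.18, 7.59, 7.24 and 7.26 in exposed mice. Exposed mice 1, 3 and 4 lay just below the sham range, and exposed mouse 2 lay within it. The difference was -0.14 ± 0.12 (SE), with a 95% interval from -0.41 to 0.13 (limma adjusted p = 0.853), and it was -0.0618 without sham mouse 1 and -0.23 without exposed mouse 2.

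Lpar4 and Lpar6, the receptors related to the P2Y family, had higher means in exposed mice. Lpar4, which is known from blood and lymph vessel development, was 7.65, 7.23, 7.62 and 7.33 in sham and 7.60, 7.46, 7.60 and 7.85 in exposed mice. The groups overlapped, and 1 exposed mouse, mouse 4, lay above every sham mouse. The difference was 0.17 ± 0.13 (SE), with a 95% interval from -0.11 to 0.45 (limma adjusted p = 0.847), and the Lpar4 difference was 0.0924 without sham mouse 2 and 0.0941 without exposed mouse 4.

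Lpar6, known from inherited hair loss and from vessels, had the smallest p of the 5 receptors. Its values were 8.97, 9.01, 9.03 and 8.67 in sham and 9.10, 8.99, 9.27 and 9.32 in exposed mice. Exposed mice 1, 3 and 4 lay above every sham mouse, and exposed mouse 2 lay within the sham range. Sham mice averaged 8.92 ± 0.17 and exposed mice 9.17 ± 0.15, a difference of 0.25 ± 0.11 (SE) with a 95% interval from -0.01 to 0.50 (unadjusted p = 0.054, limma adjusted p = 0.838). Lpar6 lies within the span of Rb1, the retinoblastoma gene, which has its own probe set with a mean of 8.07 ± 0.14 in sham and 8.25 ± 0.22 in exposed mice. Whether signal from Rb1 transcripts adds to the Lpar6 probe set was not tested.

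**Figure D2:**
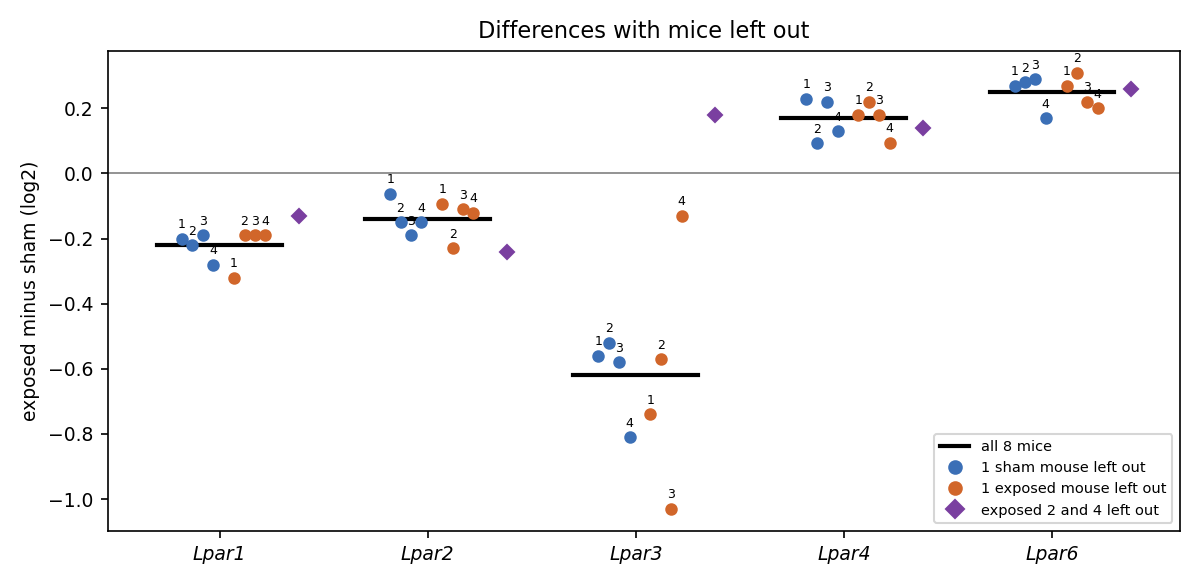
Difference in log2 expression, exposed minus sham, for each LPA receptor with all 8 mice (black line), with 1 sham mouse (blue) or 1 exposed mouse (orange) left out, numbered by the mouse left out, and with exposed mice 2 and 4 both left out (purple diamond). Lpar3 moves from -0.13 without exposed mouse 4 to -1.03 without exposed mouse 3, and is 0.18 in the diamond setting, while the other 4 receptors keep their sign in each setting shown.

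No pair of receptors was shown to vary together over the mice. Of the 10 pairs, 0 passed an exact permutation test of Pearson's r after Benjamini-Hochberg adjustment, and 0 had an unadjusted p under 0.05. The pair of highest r was Lpar4 with Lpar6 (r = 0.69, exact permutation p = 0.0557, adjusted p = 0.557, rho = 0.48 with exact permutation p = 0.243 over 8 mice). This r was 0.66 without sham mice 2 and 4, and 0.57 for deviations from the group means. Lpar2 and Lpar6 ran opposite ways (r = -0.52, exact permutation p = 0.183, adjusted p = 0.75, rho = -0.83 with exact permutation p = 0.0154, adjusted to 0.154), with r = -0.73 without sham mouse 1 and exposed mouse 2.

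The defining markers of the uterus were bright on every array. The lowest value over the 8 mice was 12.49 for Acta2 of smooth muscle, 10.87 for Hoxa10 of stroma, 10.34 for Cdh1 and 8.44 for Krt8 of epithelium, against an array median of 7.08, while the adipocyte marker Adipoq lay between 4.23 and 7.10. Ovgp1, a marker of the oviduct, lay between 7.97 and 9.68, above the array median in every mouse. The adipocyte score reached 6.65 in exposed mouse 1 and 6.94 in exposed mouse 2, where the remaining 6 mice had 5.48 to 5.93. Its r with Lpar3 was -0.31 (exact permutation p = 0.452), or -0.81 without exposed mouse 4 and -0.20 without exposed mouse 3. Its rho with Lpar3 was -0.83 (exact permutation p = 0.0154, adjusted over 65 relations to 0.5). The part of adipocytes in the receptor values was not tested. The first principal component of all probe sets held 38.6% of the variance, and exposed mice 4 and 2 stood apart on it (40.6 and 26.1, against -18.9 to 1.85 in the other 6 mice). Lpar3 was low where this component was high (r = -0.86, exact permutation p = 0.00779, adjusted over the 5 receptors 0.0255, rho = -0.60 with exact permutation p = 0.132), and r was -0.82 without exposed mice 3 and 4. For Lpar1 r was -0.79 (exact permutation p = 0.0102, adjusted 0.0255), rho was -0.71 (exact permutation p = 0.0576), and r was -0.94 without exposed mice 2 and 3. The mice left out were those farthest from the median of each receptor, not of the component. Exposed mouse 2 thus stayed in for Lpar3 and exposed mouse 4 for Lpar1. As r was not computed without both exposed mice 2 and 4, these values do not show whether the relations hold without them. This comparison was chosen after the values were seen, and the component is computed from the same arrays.

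Marker levels of the epithelium differed in the mouse with the lowest Lpar3. The mean over 11 luminal epithelium markers was 8.10 in exposed mouse 4, against 8.44 to 8.47 in the other 3 exposed mice and 8.38 to 8.79 in sham mice. In exposed mouse 4, 6 of the 11 markers had their lowest value of all 8 mice, while 2 lay above every sham mouse. The mean over 8 gland markers was 9.71 in exposed mouse 4 and 8.76 in exposed mouse 3, which had the highest Lpar3, against 7.47 to 8.01 in the other 6 mice. The gland markers did not run together in exposed mouse 4, where 5 of 8 lay above every sham mouse and 3 of 8 had their lowest value of all 8 mice. The exposed values of the secreted proteins Prss28, Spink1 and Prss29 reached 12.64, 12.22 and 12.04, with sham maxima of 5.67 for Prss28 and 8.98 for Spink1, whereas the exposed means of Foxa2 and Cxcl15 were lower by 0.25 and 0.72. In whole uterus, fewer epithelial cells and less Lpar3 RNA per cell cannot be told apart, and the part of these markers in the Lpar3 values was not tested.

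Over the 8 mice, r between Lpar3 and the luminal epithelium score was 0.47 (exact permutation p = 0.231, rho = 0.02 with exact permutation p = 0.977) and turned to -0.40 without exposed mouse 4. With the gland score r was -0.50 (exact permutation p = 0.209, rho = 0.19 with exact permutation p = 0.665) and turned to 0.77 without exposed mouse 4. Both relations therefore rest on that mouse for their direction.

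**Figure D3:**
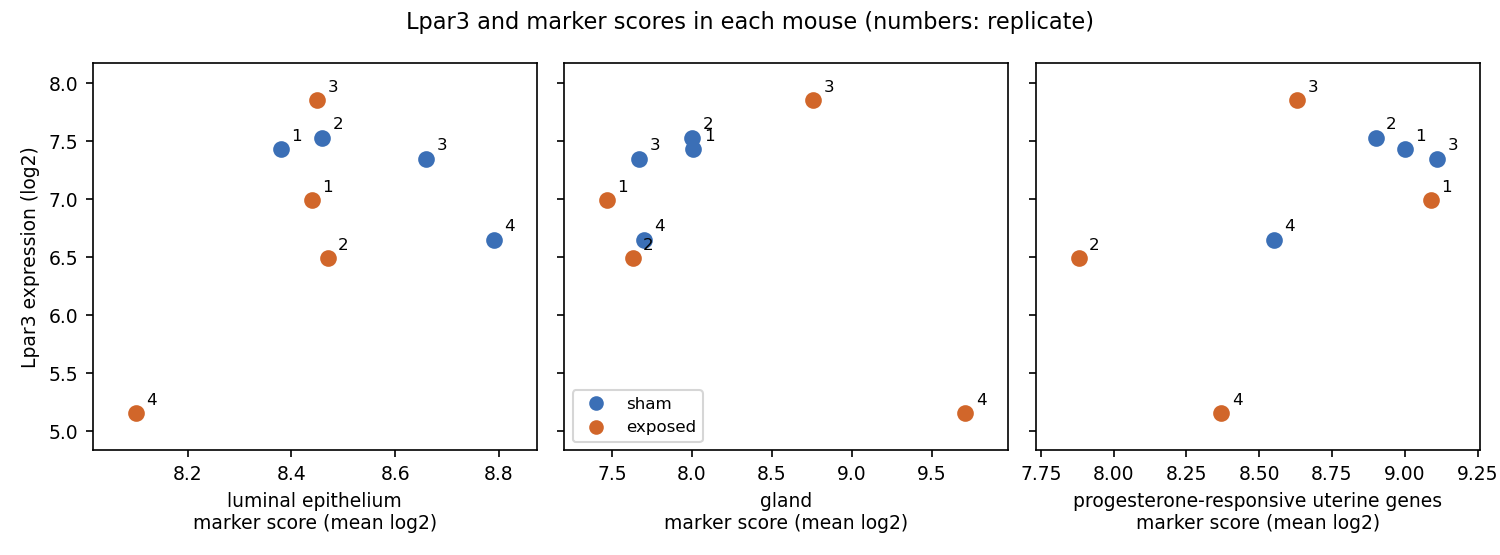
Log2 expression of Lpar3 in each mouse against the mean log2 value of luminal epithelium markers (left), gland markers (middle) and progesterone-responsive genes (right), with sham mice in blue and exposed mice in orange, numbered by replicate. Exposed mouse 4, at an Lpar3 value of 5.16, has the lowest luminal epithelium score (8.10) and the highest gland score (9.71).

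Of 65 relations between the 5 receptors and 13 marker scores (11 cell types and 2 hormone responses), 0 passed after Benjamini-Hochberg adjustment, and 8 had an unadjusted exact permutation p under 0.05. The smallest p was for Lpar1 with the progesterone-responsive score (r = 0.87, exact permutation p = 0.00434, adjusted p = 0.273, rho = 0.86 with exact permutation p = 0.0107), and r was 0.90 without exposed mice 2 and 4. Lpar1 followed the smooth muscle score with r = 0.76 (exact permutation p = 0.0197, adjusted p = 0.273), rho = 0.79 (exact permutation p = 0.0279) and r = 0.66 without exposed mice 2 and 4. Its r was 0.64 with the stroma score (exact permutation p = 0.018, adjusted p = 0.273). With the lymphatic endothelium score it was -0.75 (exact permutation p = 0.0417, adjusted p = 0.339). Lpar6 followed the endothelium score with r = 0.84 (exact permutation p = 0.0113, adjusted p = 0.273) and rho = 0.57 (exact permutation p = 0.151), but r was 0.39 without sham mouse 4 and exposed mouse 4, so this relation rests on those mice. Lpar6 ran opposite to the luminal epithelium score (r = -0.79, exact permutation p = 0.0245, adjusted p = 0.273, rho = -0.55), but r was -0.05 without the same mice. With the oviduct and ovary score, r of Lpar6 was 0.74 (exact permutation p = 0.0339, adjusted p = 0.315, rho = 0.57), and 0.96 without exposed mice 1 and 4. Lpar3 and the T and B cell score ran opposite ways, with r = -0.74 (exact permutation p = 0.0252, adjusted p = 0.273), rho = -0.69 (exact permutation p = 0.0694) and r = -0.76 without sham mouse 1 and exposed mouse 4. This r was -0.46 without exposed mouse 4 alone, and -0.44 when the score was the median over markers. Without exposed mouse 3, 3 relations passed adjustment, those of Lpar1 with the progesterone-responsive, smooth muscle and stroma scores (r = 0.95, 0.93 and 0.79). The progesterone-responsive and stroma lists share Hand2 and Nr2f2, so relations with these scores are not independent.

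Hormone-responsive genes were measured because steroid hormones are known to regulate Lpar3 in this tissue. Of 12 measured progesterone-responsive genes, 3 had higher and 9 lower exposed means, and 0 passed limma's test after adjustment in either direction. At limma's unadjusted p under 0.05 there were 3, all lower, against 2.5% of all probe sets in that direction. The list was chosen with earlier results of these data known. Its median difference was -0.367, against -0.000543 over all genes. This median was -0.556 without exposed mouse 1 and -0.052 without exposed mice 2 and 4. Sgk1, a kinase of ion transport, was 9.04, 8.20, 9.20 and 9.34 in sham and 9.23, 7.67, 7.72 and 7.76 in exposed mice. Exposed mouse 1 alone stayed within the sham range, which was also the exception for Lpar1. Fkbp5, a co-chaperone of steroid receptors, differed by -0.65 ± 0.25 (SE), and Sox17, a transcription factor of the epithelium, by -0.61 ± 0.26, or -0.31 without exposed mouse 4 (limma adjusted p = 0.838 for each). The progesterone-responsive score followed Lpar3 with r = 0.55 (exact permutation p = 0.163, rho = 0.52 with exact permutation p = 0.197), and r was 0.08 without exposed mice 2 and 4. Of 7 oestrogen-responsive genes, 3 had higher and 4 lower means, 0 passed, and the median difference of -0.348 became 0.498 without sham mouse 4, 0.241 without exposed mouse 4 and -0.147 without exposed mouse 3. Aqp5, a water channel, differed by 0.67 ± 0.36 (SE), Sprr2f, a cornified envelope protein, by -0.76 ± 0.48, and Muc1, a cell surface mucin, by -0.35 ± 0.29. Without sham mouse 4 the Sprr2f difference was -0.25 and that of Muc1 -0.0352, and the Aqp5 difference was 0.35 without exposed mouse 4 and 1.01 without exposed mouse 1.

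Enzymes that make LPA or its precursors showed no common direction. Of 10 measured genes, 6 had higher and 4 lower exposed means, and 0 passed limma's test after adjustment. At limma's unadjusted p under 0.05 there was 1, against 5.42% of all probe sets. That gene was Gpat2, an acyltransferase for glycerol 3-phosphate, with a difference of -0.33 ± 0.13 (SE). Gpam, the mitochondrial acyltransferase of the first step of glycerolipid synthesis, was 9.13, 9.16, 9.45 and 9.70 in sham and 9.42, 9.96, 9.58 and 9.91 in exposed mice, with 2 exposed mice above the sham range. Its difference was 0.35 ± 0.16 (limma adjusted p = 0.838), and that of Gpat4, an acyltransferase of the endoplasmic reticulum, was -0.24 ± 0.12. The median difference of the list was 0.051, and it ran from 0.0187 without exposed mouse 4 to 0.0952 without exposed mouse 3, was 0.135 with dim probe sets filtered out and -0.0245 without exposed mice 2 and 4.

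Genes that remove LPA were counted in the same way. Of 9, 2 had higher and 7 lower exposed means, against 50.2% of all genes with lower means. This split of a short list was not tested. Of the 9, 0 passed and 0 had an unadjusted p under 0.05. The median difference was -0.116, or -0.0527 without exposed mouse 2 and -0.0634 without exposed mouse 4. Agpat5 (-0.20 ± 0.12, SE) and Agpat3 (-0.14 ± 0.10) encode acyltransferases that turn LPA into phosphatidic acid. Plpp2 (-0.12 ± 0.10) encodes a lipid phosphate phosphatase. The 2 genes with higher means were Plpp3, another lipid phosphate phosphatase with the largest difference of the list (0.27 ± 0.22), and Acp6 (0.12 ± 0.11).

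Related receptors comprised 7 measured receptors for sphingosine 1-phosphate and other lysophospholipids. Of these, 5 had higher and 2 lower exposed means, against 50.2% of all genes with lower means, a split that was not tested. After adjustment 0 passed, and 0 had an unadjusted p under 0.05 in limma's test. The median difference was 0.128, or 0.0733 without exposed mouse 4 and 0.0808 without sham mouse 4. S1pr3, a receptor of vessels and smooth muscle, was 7.14, 6.98, 7.05 and 7.12 in sham and 7.30, 7.48, 7.05 and 7.24 in exposed mice, with 3 exposed mice above the sham range (difference 0.20 ± 0.10, SE, limma adjusted p = 0.838). S1pr5 differed by 0.22 ± 0.16 and S1pr2 by 0.14 ± 0.10, and the S1pr5 difference was 0.0723 without exposed mouse 2 and -0.0125 without exposed mice 2 and 4. The median of the list was also -0.0125 in that last setting.

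Genes that respond to LPA showed no common direction. Of 9 genes that LPA or serum induces in cultured cells, 3 had higher and 6 lower means and 0 passed. Their median difference of -0.042 became 0.321 without sham mouse 1 and 0.091 without exposed mouse 1. Srf, the serum response factor, differed by -0.24 ± 0.15, or -0.10 without exposed mouse 4 and -0.0207 without exposed mice 2 and 4. Fos, an immediate early gene, differed by -0.12 ± 0.41, with sham mouse 1 at 8.72 against 6.57 to 7.55 in the other 7 mice.

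The list of genes placed downstream of LPAR3 at implantation was short. Of 5, 4 had higher and 1 lower exposed means, and 0 passed after adjustment. In limma's test 1 had an unadjusted p under 0.05, lower in exposed mice, against 2.5% of all probe sets in that direction. The median difference was 0.0639, or -0.000962 without exposed mouse 4. The gene with that p was Ptgs2, which encodes cyclooxygenase 2. Its values were 6.97, 6.04, 6.28 and 6.99 in sham and 6.11, 5.39, 5.96 and 5.35 in exposed mice. Exposed mice 2, 3 and 4 lay below every sham mouse, and exposed mouse 1 lay just inside the sham range. The difference was -0.87 ± 0.25 (SE), with limma's unadjusted p at 0.0062 and adjusted p at 0.838, and it was -0.53 without exposed mice 2 and 4. Exposed mouse 3 had low Ptgs2 and the highest Lpar3, and exposed mouse 4 had the lowest value of both genes. Bmp2, a morphogen of the decidua, differed by 0.18 ± 0.21, from 0.0359 without sham mouse 4 to 0.35 without exposed mouse 1. Wnt4, a stromal WNT ligand, differed by 0.10 ± 0.19, or -0.0427 without exposed mouse 2. This list was written with results of these data known, so the Ptgs2 value is not independent evidence.

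**Figure D4:**
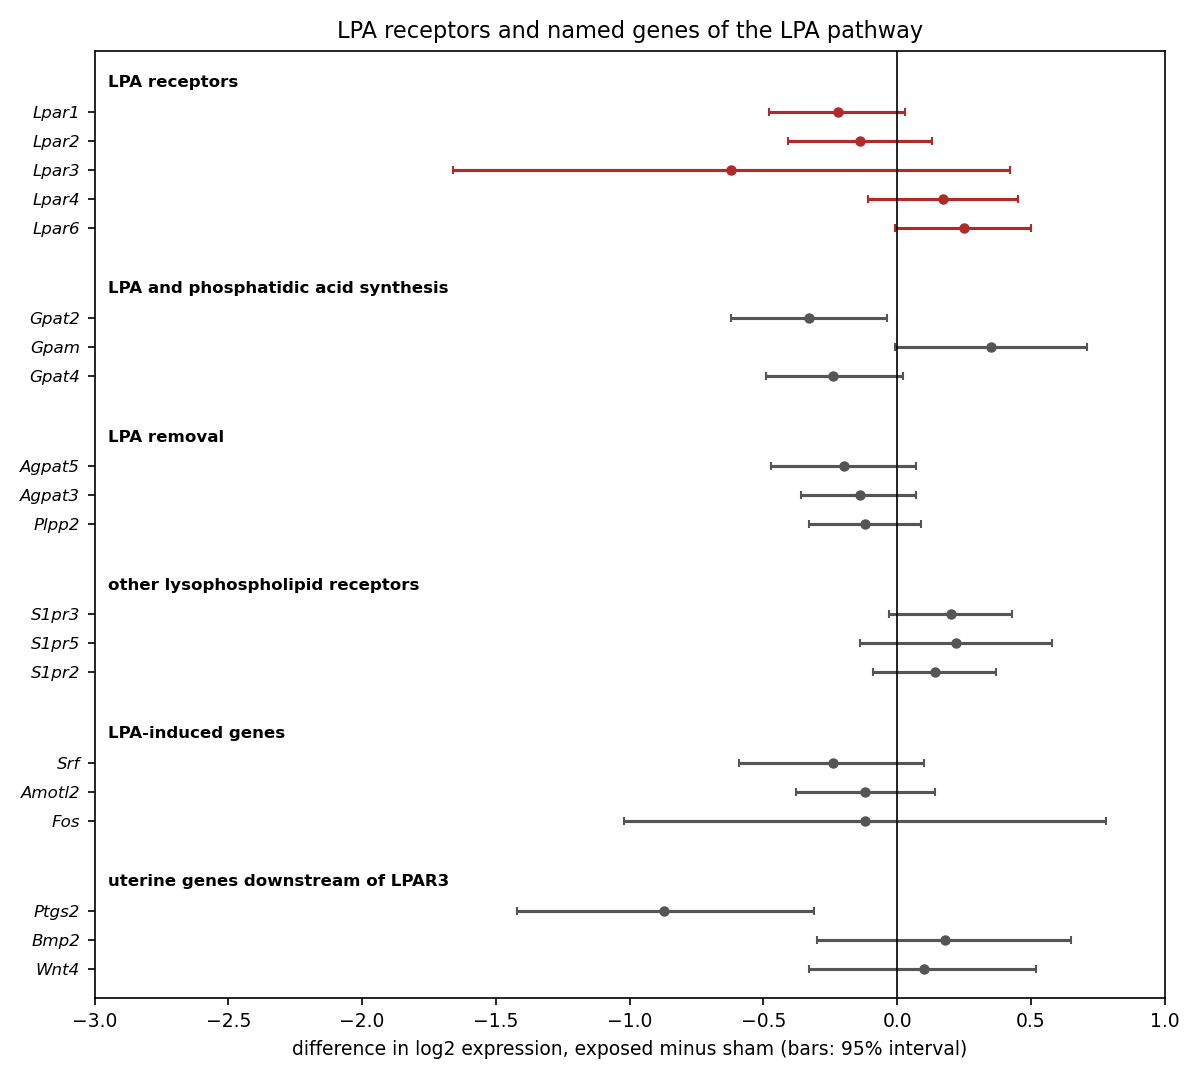
Difference in log2 expression, exposed minus sham, with its 95% interval from limma, for the 5 LPA receptors (red) and for the genes of smallest p from 5 LPA pathway lists (grey). The interval of Lpar3 runs from -1.66 to 0.42 and is the widest shown, and those of Gpat2 and Ptgs2 lie below 0 before adjustment.

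Genes with profiles most like Lpar3 were sought among 3179 genes of at least median brightness and an SD of at least 0.2 over the 8 mice. Of these, 76 had an r of 0.9 or more with Lpar3 and 36 an r of -0.9 or less, while Lpar1 had 17 and 28, Lpar6 had 10 and 6, Lpar4 had 4 and 0, and Lpar2 had 0 of either. The highest were Gstp1, a glutathione transferase (r = 0.992), Dapp1, an adaptor of phosphoinositide signalling (r = 0.983), and Il17rb, the receptor of interleukin 25 (r = 0.966). Also among the 10 highest were Mt2, a metallothionein (r = 0.965), Gclm, the modifier subunit of glutathione synthesis (r = 0.958), and Ndufb2, a subunit of respiratory complex I (r = 0.960). The others were Ak1, Pls3, Bcs1l and Spag7 (r = 0.966, 0.966, 0.960 and 0.956). As these genes were picked for their r, no p is given.

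Il17rb showed the widest range of the 10. It was 9.98, 10.36, 9.29 and 8.85 in sham mice and 9.03, 9.09, 10.53 and 5.90 in exposed mice, with exposed mouse 4 lowest and exposed mouse 3 highest, as for Lpar3. Gclm put the 8 mice in the same order as Lpar3 (rho = 1.00). Without exposed mice 3 and 4, r with Lpar3 lay between 0.81 for Spag7 and 0.97 for Gstp1. These genes were picked for their r over all 8 mice, so a high r over the remaining mice follows in part from that choice. At the other end stood Neurl2 (r = -0.978), Creg1, a secreted lysosomal glycoprotein (r = -0.954), and Rnase6, a ribonuclease of immune cells (r = -0.951). Of these 13 genes, 0 passed limma's test between groups after adjustment.

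**Figure D5:**
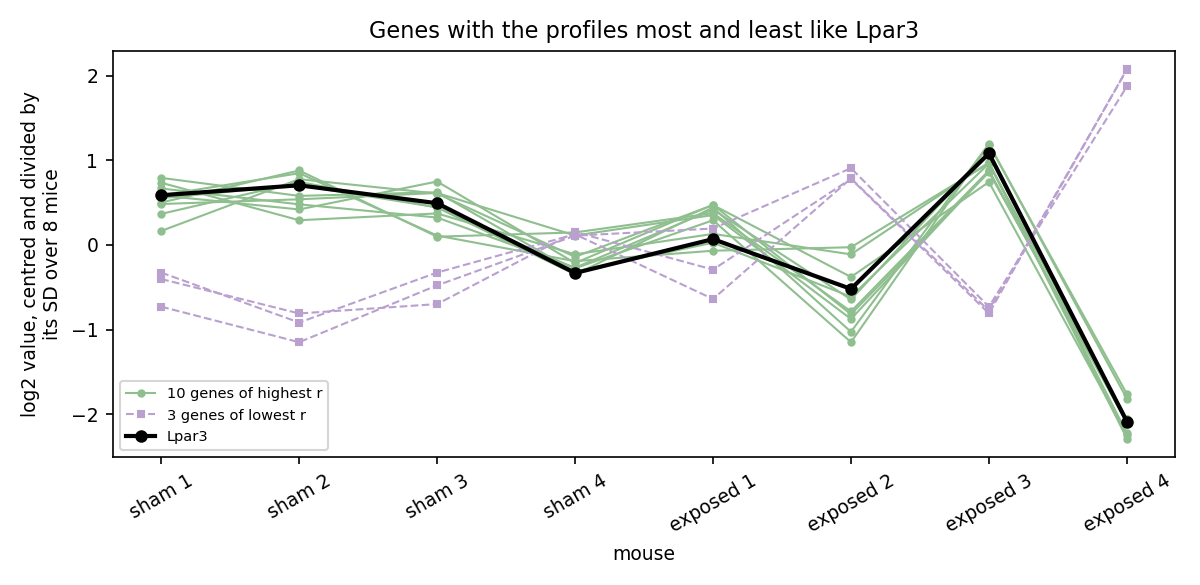
Log2 value of Lpar3 (black), of the 10 genes of highest r with it (green) and of the 3 genes of lowest r (purple, dashed) in each of the 8 mice, each gene centred on its mean and divided by its SD. The green lines follow Lpar3 to its lowest point in exposed mouse 4, where the purple lines are highest.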

How the data were processed

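The authors deposited log2 expression values of 22206 probe sets on 8 arrays. The log2 scale is read from their range (2.75 to 13.6). The submitters' processing notes name Partek, and no source used here states the background correction or summarisation. The sorted columns differ by at most 0.0198, so a change shared by all genes would be set to 0. Symbols came from the platform annotation (19572 probe sets with 1 symbol, 2634 with none), and the brightest probe set was kept per gene.

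Differences were fitted over all probe sets with limma 3.58.1 in R 4.3.3 (lmFit, eBayes, no covariates), with Benjamini-Hochberg adjustment and a threshold of 0.05. Correlations over mice used exact permutation of the 8 mice (two-sided). A marker score is the mean log2 value of a list. The fit was tested on simulated data. The members, lists, tests and alternatives were chosen with earlier results of these data known. Named genes were the members, the 3 genes of smallest p in each pathway or hormone list with Ptgs2, and the genes most like each member by r. The LPA removal genes with higher means and some cell type markers were named as well. Enpp2 and list genes with no probe set under their symbol were left out, and 1 pathway list is not reported here. Groups follow the treatment in each sample's title. Alternatives comprised normalization, filters on dim probe sets, variance moderation, weights per array, a block for the replicate number, the mean of all probe sets and leaving out mice.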

Additional observations from a re-analysis of the deposited data

Results flagged for a closer look

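Dixon's test set 1 mouse apart from the rest of its group in 8 of the 134 sets of 4 values examined, and by chance about 1 in 20 would be. Among the receptors this was Lpar1 in exposed mouse 1 (10.07, others 9.67 to 9.69). Sgk1 was also high in exposed mouse 1 (9.23, others 7.67 to 7.76). The luminal epithelium score was low in exposed mouse 4 (8.10, others 8.44 to 8.47), and Pon3, a gene like Lpar4 in profile, was high in it (9.31, others 8.84 to 8.86). Among sham mice, Muc1 was high in mouse 4 (11.01, others 9.73 to 9.81), Sox17 was high in mouse 3 (9.52, others 9.21 to 9.25), Yap1 was low in mouse 3 (8.28, others 8.62 to 8.64) and Egr3, a gene like Lpar2 in profile, was high in mouse 1 (9.22, others 8.50 to 8.52). Lpar3 itself was not among them, since its 4 exposed values are spread widely.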

How the results depend on the processing

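No receptor passed an adjusted p of 0.05 in any of the 19 alternative fits, and the smallest adjusted p of a receptor was 0.324, without exposed mouse 1. Lpar1, Lpar2, Lpar4 and Lpar6 kept the sign of their difference in each fit. Lpar3 kept it in all but 1, turning to 0.18 without exposed mice 2 and 4, was -0.38 with array weights, and was not tested with the filter at the 50th percentile, which removes it. With 1 mouse left out, the difference ran from -0.32 to -0.19 for Lpar1, -0.23 to -0.0618 for Lpar2, -1.03 to -0.13 for Lpar3, 0.0924 to 0.23 for Lpar4 and 0.17 to 0.31 for Lpar6. The count of receptors without overlap ran from 0 to 2 with 1 mouse left out, and was 2 (Lpar2 and Lpar6) without exposed mice 2 and 4. Fewer mice overlap less readily, and the share of all probe sets without overlap was not computed with mice left out. These counts are therefore not read as results about the receptors. With the replicate number as a block the differences were those of the main fit and the smallest adjusted p of a receptor was 0.808. The correlation of same-numbered mice was 0.0800, -0.238, 0.0850 and 0.0750, so the numbers were not taken as pairs. Without exposed mice 2 and 4 the difference was -0.0125 for S1pr5 and -0.26 for Wnt4. With 1 mouse left out, Wnt4 ran from -0.0427 (without exposed mouse 2) to 0.28 and Fos from -0.36 to 0.36 (without sham mouse 1). The number of relations with marker scores that passed ran from 0 to 3 with 1 mouse left out, and r of Lpar3 ran from -0.40 to 0.74 with the luminal epithelium score and from -0.77 to 0.77 with the gland score. The cause of these changes was not tested.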

Other observations

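Profiles of the other receptors over the 8 mice were each most like those of different genes, picked as the 3 of highest r among 3179. Lpar1 was followed by Twist2, a transcription factor of mesenchymal cells (r = 0.953, rho = 0.86), Ergic1 (r = 0.948, rho = 0.88) and Lef1, a WNT effector (r = 0.939, rho = 0.79), which stood at 0.97, 0.96 and 0.98 without exposed mice 2 and 3. Lef1 was 8.85, 8.75, 8.77 and 8.29 in sham and 8.89, 8.05, 8.36 and 8.11 in exposed mice, so exposed mouse 1 stayed at the sham level as it did for Lpar1. Lpar6 was followed by Fmo1, a flavin monooxygenase (r = 0.962), Plac9b (r = 0.948) and Pde2a, a phosphodiesterase (r = 0.945). Fmo1 was 10.60, 10.66, 10.72 and 10.09 in sham and 10.94, 10.84, 11.02 and 11.18 in exposed mice, without overlap, and its difference of 0.47 did not pass limma's test after adjustment (adjusted p = 0.838). Lpar4 was followed by Mertk, a receptor for the clearance of dying cells (r = 0.926), Mef2a (r = 0.911) and Pon3 (r = 0.903). For Lpar2 the highest were Cry1, a clock repressor (r = 0.883), Thbs1 (r = 0.816) and Egr3 (r = 0.778), which stood at 0.65, 0.25 and 0.09 without sham mouse 1 and exposed mouse 2 and so rest largely on those mice.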
